A study of Homo sapiens with 30 samples.

Results

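The 42 genes described here were listed as lysine methyltransferases and lysine demethylases outside the polycomb group. They were taken by gene symbol from a list drawn up with earlier results of these data known. The list goes by protein family, and some of its proteins, such as SETD3 and JMJD6, have other activities. They were 42 of the 26443 genes with values in both deposited expression tables. The set held 26 genes grouped as writers, of which 6 act on H3K4, 6 on H3K9, 3 on H3K36 and 1 on H3K79, with 10 further SET-domain proteins whose substrates differ. It also held 16 genes grouped as erasers, of which 4 act on H3K4, 9 on H3K9 or H3K36 and 1 on H3K27, with 2 further JmjC-domain proteins. The genes lie on 17 chromosomes.

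Histone lysine methyltransferases transfer methyl groups from S-adenosylmethionine to lysines of the histone tails, most of them through a SET domain, while DOT1L uses another fold. The demethylases remove those groups either with a flavin cofactor, as KDM1A and KDM1B do, or with iron and oxoglutarate in a JmjC domain, as the KDM2 to KDM6 families do. Methylation of H3K4 marks promoters and enhancers, H3K9 methylation marks heterochromatin, and H3K36 and H3K79 methylation accompany transcription. In prostate cancer cells several of these enzymes, among them KDM1A and the KDM4 family, are known partners of the androgen receptor, and the forkhead factor FOXA1 opens chromatin for that receptor.

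The cells were LNCaP, a line from human prostate cancer that responds to androgen, and the study asked how the deubiquitinase USP7, its partner BUB3 and polycomb proteins bear on FOXA1. Total RNA was sequenced from 30 libraries in 10 groups of 3. The pLKO experiment compared cells infected for 5 days with an shRNA against USP7 (shUSP7), against BUB3 (shBUB3) or against FOXA1 (shFOXA1) with the pLKO vector control. A second experiment compared cells transfected for 4 days with an siRNA against EZH2, the H3K27 methyltransferase of polycomb (siEZH2), with a control siRNA (siCtrl). The pGIPZ experiment, again of 5 days, held cells with the FOXA1 shRNA and HA-tagged FOXA1 carrying the K295A change (shFoxA1 K295A), with the shRNA and HA-tagged wild-type FOXA1 (shFoxA1 WT), with the shRNA alone (shFoxA1), and with the pGIPZ control. The sample range that the labels give for the pGIPZ experiment leaves out the third K295A library, which is grouped by its title. Whether the 3 libraries of a group came from separate cultures is not stated, so each p-value measures the spread between these libraries, which may be technical. In bulk RNA, fewer cells with a transcript and less of it per cell cannot be told apart.

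Each targeted gene fell in its own knockdown. USP7 had 6.38, 6.14 and 6.13 FPKM in shUSP7 cells, against 28.6, 28.3 and 27.6 FPKM in pLKO control cells, BUB3 was lower by 2.91 on the log2 scale in shBUB3 cells, and EZH2 was lower by 1.18 in siEZH2 cells. EZH2 also fell in shUSP7, shBUB3 and shFOXA1 cells, by 0.90, 1.29 and 0.98, and FOXA1 fell by 0.54 in siEZH2 cells. In shFOXA1 cells BUB3 fell by 1.17 and USP7 by 0.35, so that both BUB3 and EZH2 had a lower log2 fold change than FOXA1 itself. FOXA1 had 58.3, 60.9 and 57.7 FPKM in shFOXA1 cells, against 115.8, 115.6 and 115.9 FPKM in pLKO control cells. It had 155, 149 and 150.0 RPKM with K295A and 151, 153 and 152 RPKM with wild-type FOXA1, both above the 83.1, 84.0 and 80.4 RPKM of shFoxA1 cells and the 131, 134 and 129.6 RPKM of pGIPZ control cells. Between 11262 and 12000 genes reached 1 FPKM or RPKM per library, and the relative depth recovered from the smallest steps in the values lay between 0.847 and 1.32 of the first control library of each experiment.

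All 10 luminal prostate markers were expressed, and they moved with the groups. In siEZH2 cells 10 fell (9 under median-ratio scaling, in which each library is divided by its median ratio to the mean of all) with a median log2 fold change of -1.48, and their values summed to 645 to 759 FPKM, against 2444 to 2543 FPKM in siCtrl cells. In shUSP7 cells 1 rose and 6 fell, in shBUB3 cells 2 and 8, and in shFOXA1 cells 2 and 7, with the transporter SLC45A3 lowest at -4.41. Against pGIPZ control cells 2 rose and 7 fell with K295A, 3 and 7 with wild-type FOXA1, and 5 and 5 in shFoxA1 cells. The basal markers KRT5 and TP63 and the lymphocyte, endothelial and fibroblast markers PTPRC, CD3E, MS4A1, PECAM1, CDH5, COL1A2 and DCN were under 1 in every library. The fibroblast marker LUM was under 1 in every library of the other groups but reached 1 FPKM in siEZH2 cells, in at least 1 library. Each list for those cell types had at most 1 marker that passed the filter on low values. The basal keratin KRT14 rose by 0.95 in shFOXA1 and 1.05 in shFoxA1 cells and fell by 0.55 in shUSP7 and 0.74 in shBUB3 cells, and the endothelial marker VWF rose by 0.98 in shUSP7 and 0.61 in shBUB3 cells and fell by 1.22 in shFOXA1 and 0.31 in shFoxA1 cells. Neither passed in the siRNA experiment. The collagen COL1A1 rose by 1.38 in siEZH2 cells and fell by 0.90 in shUSP7 cells. CD68, a macrophage marker that carried nearly all of the immune list, averaged 33.7 ± 1.40 RPKM in shFoxA1 cells and 13.2 ± 1.36 RPKM in pGIPZ control cells (SD, n = 3 each), and the part of these markers in the values below was not tested.

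The third shBUB3 library stood apart. Its 42 genes summed to 437 FPKM, against 549.0 and 557.2 FPKM in the other shBUB3 libraries. Relative to those, its log2(FPKM + 1) values had a median difference of -0.28 over the 25% of genes with the longest transcripts and 0.28 over the 25% with the shortest. Of the 42 genes 33 were lower in it than in the mean of the other shBUB3 libraries, with ASH1L lowest at -0.91 and JMJD6 highest at 0.35. No other library of the pLKO experiment outside the shBUB3 group had such a median farther than 0.05 from its own group. Counts of the 42 genes called in shBUB3, shUSP7 and shFOXA1 cells are given with and without the third shBUB3 library. The counts by role in shUSP7 and shFOXA1 cells and the tally over both FOXA1 knockdowns are given only with it. Values of other genes in shBUB3 cells, such as those of the marker and partner lists, are given only with it.

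In cells with only the control vector the 42 genes spanned from about 2 to 37 on the per-length FPKM and RPKM scales, and 41 or 42 of them reached 1 in each library. SETD7, which methylates H3K4 and many other proteins, was the most abundant in pLKO control cells, with 35.96 ± 1.64 FPKM (SD, n = 3). It was followed by the H3K4 demethylase KDM1A with 25.7 ± 1.57, the SET-domain protein SETD5 with 25.4 ± 1.46 and the H3K9 and H3K36 demethylase KDM4B with 24.8 ± 0.214 FPKM, and the libraries of these neighbours overlapped. The H3K27 demethylase KDM6B came next with 21.9 ± 0.776 FPKM. At the low end stood the JmjC protein KDM8 with 2.05 ± 0.338 and the methyltransferase SMYD2 with 2.65 ± 0.251 FPKM, again with overlapping libraries, and then the H3K9 methyltransferase EHMT2 with 3.17 ± 0.0741 FPKM.

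In pGIPZ control cells the order differed at the top, where KDM6B led with 36.7 ± 0.856 RPKM, the H3K9 methyltransferase EHMT1 followed with 27.1 ± 1.44 RPKM, and SETD7 had 19.8 ± 0.599 RPKM. SMYD2 was lowest there with 1.88 ± 0.268 RPKM, followed by the H3K9 methyltransferase SETDB2 with 2.59 ± 0.110 and the H3K9 and H3K36 demethylase KDM4C with 2.72 ± 0.287 RPKM. The FPKM and RPKM tables were normalized separately, so these levels are set side by side without a test.

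**Figure D1:**
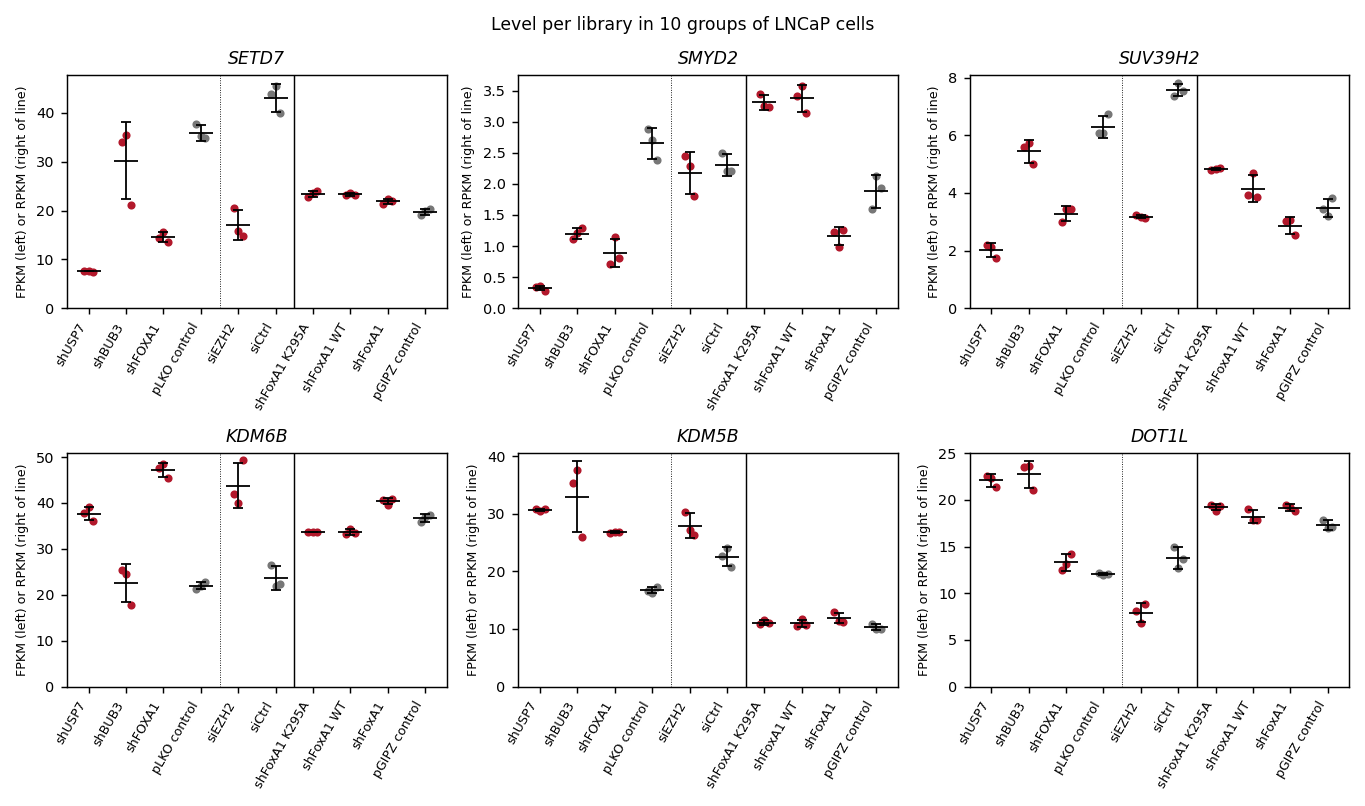
Level of 6 of the 42 genes in each library (points) with the group mean and SD (n = 3), in FPKM left of the solid line and RPKM right of it, the knockdowns (red) left of their control (gray). SETD7 sits at 7.52 to 7.65 FPKM in the 3 shUSP7 libraries and 34.8 to 37.8 FPKM in the pLKO control libraries, while in the pGIPZ experiment all its libraries lie between 19.1 and 23.9 RPKM.

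RefSeq promoter windows on GRCh38.p14, the build the files use, were matched by symbol to 39 of the 42 genes, in 55 windows. The windows are printed for SMYD2, which was called lower in 4 of the 5 knockdowns, for KDM6B, which was called higher in 4 of the 5, and for NSD1, a H3K36 methyltransferase with a forkhead motif in 1 of its 5 windows, which is the one shown. Each is cut before the first annotated exon. KDM6B has 2 windows, of which the first listed is shown, and that one ends upstream of the annotated gene start at 7839904. Capitals mark the GC box GGGCGG and the forkhead motif TGTTTAC, each searched on both strands.
SMYD2: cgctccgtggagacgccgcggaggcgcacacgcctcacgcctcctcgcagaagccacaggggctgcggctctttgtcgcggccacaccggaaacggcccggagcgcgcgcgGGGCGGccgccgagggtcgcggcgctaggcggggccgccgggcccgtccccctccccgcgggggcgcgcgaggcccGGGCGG
KDM6B: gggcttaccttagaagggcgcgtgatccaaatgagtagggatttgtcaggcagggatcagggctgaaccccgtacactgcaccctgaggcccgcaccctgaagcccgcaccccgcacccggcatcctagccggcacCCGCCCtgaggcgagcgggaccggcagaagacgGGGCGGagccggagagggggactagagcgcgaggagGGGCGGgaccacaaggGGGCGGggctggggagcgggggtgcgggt
NSD1: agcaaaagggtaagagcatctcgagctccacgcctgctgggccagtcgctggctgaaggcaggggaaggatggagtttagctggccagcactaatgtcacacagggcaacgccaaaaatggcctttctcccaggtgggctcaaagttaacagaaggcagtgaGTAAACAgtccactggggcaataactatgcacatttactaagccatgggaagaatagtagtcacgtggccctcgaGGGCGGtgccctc
The SMYD2 stretch (chr1:214280909-214281101, plus strand) holds 193 bases with 81.9% G or C, the KDM6B stretch (chr17:7833967-7834216, plus strand) 250 bases with 70.4%, and the NSD1 stretch (chr5:177131548-177131797, plus strand) 250 bases with 54.4%. Over the 250 bases before the start, the GC box was in 43 of the 55 windows (78.2%), against 42.6% of all 35116 windows, and the windows had a median of 68.8% G or C, against 58% over all windows. The forkhead motif TGTTTAC was in 2 of the 55 windows (3.64%), 1 each of KDM2B and NSD1, a share near the 2.98% of all windows. The forkhead variant TGTTTGC was in windows of KDM8 and PRDM2, against 3.23% of all windows, and the androgen response element core AGAACA was in no window of the 55, against 12.4% of all. A match is a description of letters and not of binding.

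Expression was compared between groups on log2(value + 1) in 1 limma fit per experiment, which shares its estimate of the spread over that experiment's groups. A gene counted as called, and is said to have risen or fallen, when its p-value after Benjamini-Hochberg adjustment over all tested genes was under 0.05. All 42 genes passed the filter of at least 1 FPKM or RPKM in at least 3 libraries in each experiment. A log2 difference below is on this scale, which understates the change of low genes, and is followed by its standard error. Exons of 21 of the 42 genes overlap those of another gene, 19 of them on the opposite strand, and the called neighbours are given where they concern a named gene.

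**Figure D2:**
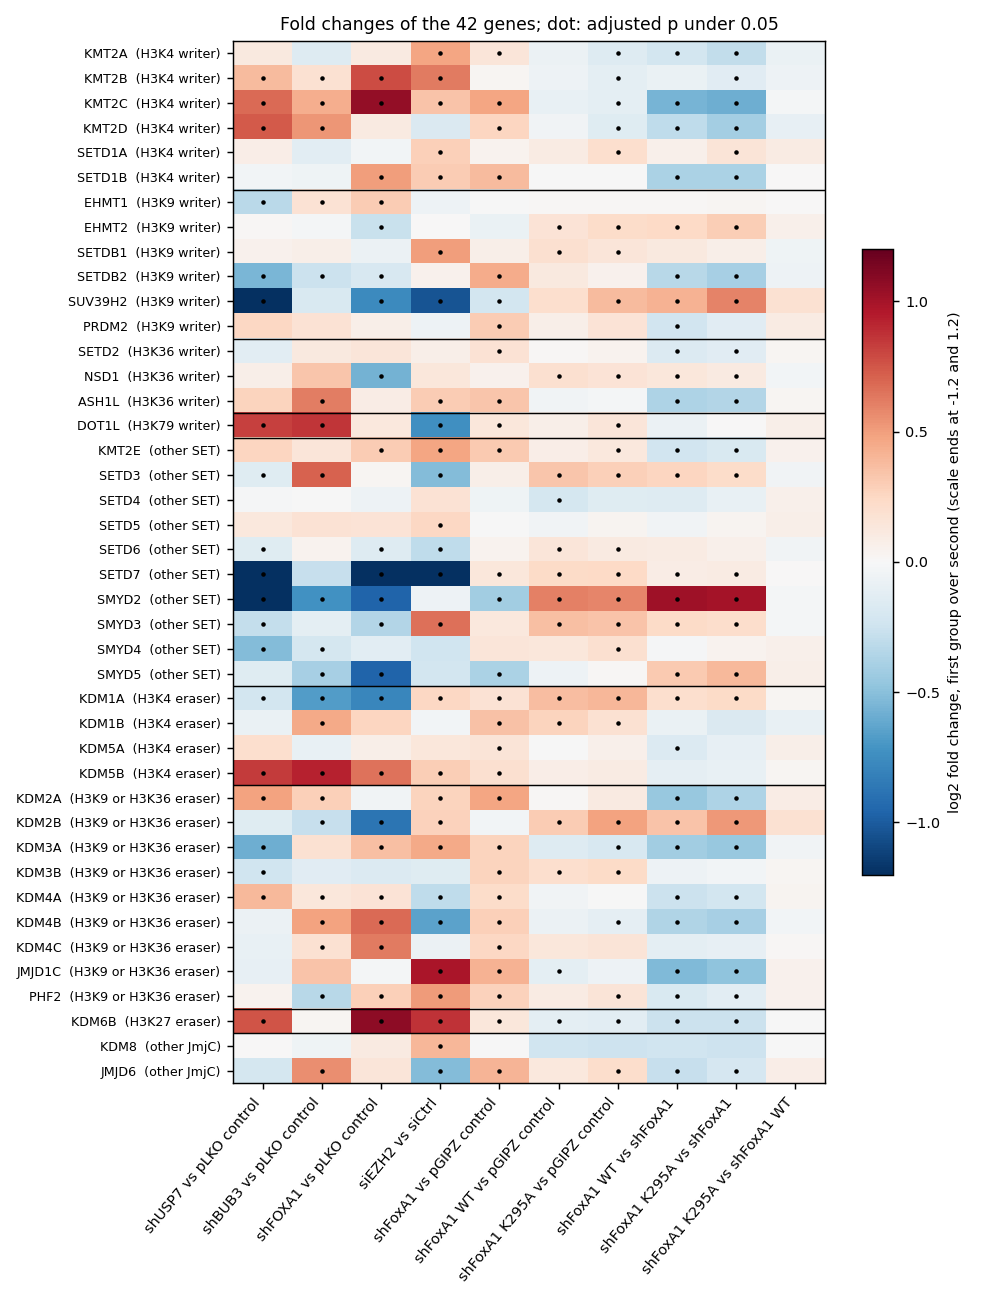
Log2 fold change of the 42 genes (rows, by role) in the 10 comparisons (columns), with a dot where the gene was called and colours that end at -1.2 and 1.2. SETD7 is dark blue in the shUSP7, shFOXA1 and siEZH2 columns, at -2.10, -1.25 and -1.29, and the K295A against wild-type column has no dot.

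**Figure D3:**
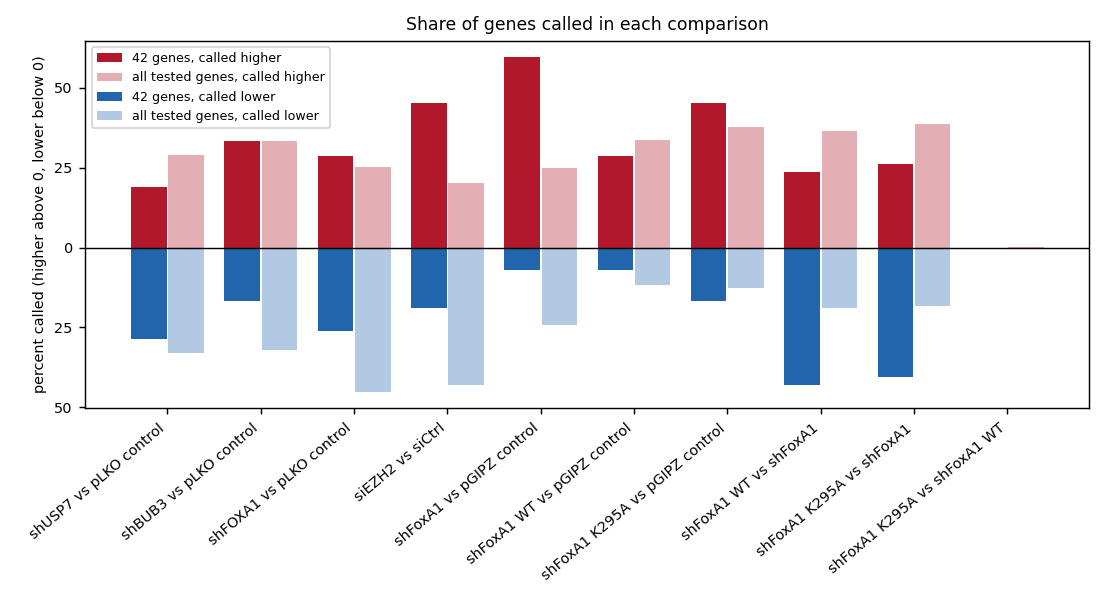
Percent of the 42 genes (solid bars) and of all tested genes (pale bars) called higher (upward) or lower (downward) in each comparison. The solid upward bar exceeds the pale one most in shFoxA1 against pGIPZ control, at 59.5% and 25%.

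In shUSP7 cells the most affected of these enzymes were 3 methyltransferases that fell by more than 2-fold, SETD7, SMYD2 and SUV39H2, while the demethylases KDM5B and KDM6B and the H3K79 methyltransferase DOT1L rose. Of the 42 genes 8 rose (19.0%) and 12 fell (28.6%), against 29.1% and 33% of all 12524 genes tested, and the median log2 fold change was -0.03 over the 42 genes and -0.02 over all. Under median-ratio scaling the balance turned, with 11 higher and 9 lower and a median of 0.02 over the 42 genes and 0.03 over all.

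Among the H3K4 writers 3 of 6 rose and none fell in shUSP7 cells. KMT2C, which monomethylates H3K4 at enhancers, had 10.9, 10.7 and 10.8 FPKM in shUSP7 cells, against 6.71, 5.99 and 6.44 FPKM in pLKO control cells. Its paralog KMT2D rose by 0.74 and KMT2B, which acts at promoters, by 0.38 on the log2 scale. KMT2C has near-identical copies elsewhere in the genome, so its values are uncertain.

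No H3K9 writer rose in shUSP7 cells and 3 of 6 fell. SUV39H2, which trimethylates H3K9 in heterochromatin, had 2.20, 2.14 and 1.73 FPKM in shUSP7 cells, against 6.09, 6.07 and 6.74 FPKM in pLKO control cells. The groups did not come near each other, and the log2 fold change was -1.27 ± 0.08 (adjusted p = 7.9e-08). SETDB2 fell by 0.55 and EHMT1 by 0.32 on the log2 scale. SUV39H2 shares exon bases with DCLRE1C on the other strand, which fell as well, at -0.44, and whether reads were counted by strand is not given in the sources used here.

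DOT1L, the sole H3K79 writer, had 22.6, 22.3 and 21.3 FPKM in shUSP7 cells, against 12.2, 11.99 and 12.1 FPKM in pLKO control cells. All shUSP7 libraries were well above all control libraries, with a log2 fold change of 0.82 ± 0.06 (adjusted p = 2.6e-07). Its neighbour PLEKHJ1, which overlaps its exons on the other strand, also rose, at 0.68. None of the H3K36 writers SETD2, NSD1 and ASH1L was called, in a fit whose shared spread includes the third shBUB3 library. ASH1L still had 9.05, 9.99 and 9.22 FPKM in shUSP7 cells, above the 7.80, 7.39 and 7.70 FPKM of pLKO control cells. SETD2 had 7.36, 7.36 and 7.06 FPKM, below the 8.12, 7.69 and 8.32 FPKM of control cells.

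Of the 10 other SET-domain proteins 6 fell in shUSP7 cells and none rose, and under median-ratio scaling 4 fell and 1 rose. SETD7 (chr4:139495941-139606699, minus strand) had 7.65, 7.65 and 7.52 FPKM in shUSP7 cells, against 37.8, 35.2 and 34.8 FPKM in pLKO control cells. Its log2 fold change of -2.10 ± 0.15 (adjusted p = 2.3e-07) was the lowest of the 42 genes, and the shUSP7 libraries differed from each other by far less than from the control. SMYD2 (chr1:214281102-214337131, plus strand), a lysine methyltransferase of the SMYD family, had 0.335, 0.355 and 0.281 FPKM in shUSP7 cells, against 2.88, 2.70 and 2.38 FPKM in pLKO control cells, and its log2 fold change was -1.46 ± 0.09 (adjusted p = 6.4e-08). The shUSP7 values of SMYD2 were all under 1 FPKM. SMYD4 fell by 0.52, SMYD3 by 0.29, and SETD3, an actin histidine methyltransferase, and SETD6 each by 0.15 on the log2 scale.

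Among the demethylases KDM5B (chr1:202724495-202809470, minus strand), which removes H3K4 trimethylation, had 30.9, 30.6 and 30.8 FPKM in shUSP7 cells, against 16.6, 16.2 and 17.4 FPKM in pLKO control cells. It was higher in 3 of 3 shUSP7 libraries, by 0.84 ± 0.10 (adjusted p = 2.3e-05). KDM6B (chr17:7839904-7854796, plus strand), which removes the H3K27 methylation laid by EZH2, had 37.9, 39.1 and 36.1 FPKM in shUSP7 cells, against 21.2, 22.0 and 22.7 FPKM in pLKO control cells, a log2 fold change of 0.75 ± 0.10 (adjusted p = 5.9e-05). The shUSP7 libraries were again all above the control. KDM2A and KDM4A rose by 0.49 and 0.38, while KDM3A, KDM3B and KDM1A fell by 0.59, 0.24 and 0.22 on the log2 scale.

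In shBUB3 cells KDM5B and DOT1L rose by the largest amounts, the actin methyltransferase SETD3 rose with them, and SMYD2, KDM1A and SMYD5 fell. Of the 42 genes 14 rose (33.3%) and 7 fell (16.7%), against 33.3% and 32% of all genes tested, with a median of 0.09 over the 42 genes and 0.01 over all. No gene of the 42 moved by 2-fold. Without the third shBUB3 library 23 rose and 7 fell, which included all 14 and all 7 of the full set, and the median was 0.19. The genes called higher numbered 8 without the first or the second shBUB3 library and 9 without the second pLKO library.

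KDM5B had 35.4, 37.6 and 26.1 FPKM in shBUB3 cells, against 16.6, 16.2 and 17.4 FPKM in pLKO control cells. The third library was the lowest of the shBUB3 group and still above every control library, and the log2 fold change was 0.92 ± 0.10 (adjusted p = 1.0e-05). Without the third library the log2 fold change of KDM5B was 1.08, which is above 2-fold on the log2(FPKM + 1) scale. DOT1L had 23.5, 23.7 and 21.1 FPKM in shBUB3 cells, against 12.2, 11.99 and 12.1 FPKM in pLKO control cells, a log2 fold change of 0.86 ± 0.06 (adjusted p = 1.7e-07), and the overlapping PLEKHJ1 rose by 1.01. SETD3 had 28.9, 30.1 and 29.8 FPKM in shBUB3 cells, against 18.4, 18.4 and 16.5 FPKM in pLKO control cells. All shBUB3 libraries were above the control for both genes, and SETD3 differed by 0.71 ± 0.05 (adjusted p = 2.5e-07).

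SMYD2 had 1.11, 1.22 and 1.29 FPKM in shBUB3 cells, against 2.88, 2.70 and 2.38 FPKM in pLKO control cells, and fell by 0.73 ± 0.09 on the log2 scale (adjusted p = 2.0e-05). KDM1A (chr1:23019443-23083689, plus strand), the flavin-dependent H3K4 demethylase, had 14.6, 16.6 and 16.2 FPKM in shBUB3 cells, against 26.3, 26.9 and 23.9 FPKM in pLKO control cells. Its 3 shBUB3 libraries lay below all control libraries, with a log2 fold change of -0.67 ± 0.06 (adjusted p = 1.8e-06). SMYD5 had 3.88, 4.50 and 4.19 FPKM in shBUB3 cells, against 5.46, 5.55 and 6.48 FPKM in pLKO control cells, and its log2 fold change was -0.40 ± 0.08 (adjusted p = 0.00095). SMYD2 and SMYD5 were below the control in every shBUB3 library too.

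The calls on ASH1L and KMT2D in shBUB3 cells rested on which libraries were used. ASH1L, a H3K36 methyltransferase, had 15.5, 15.2 and 7.68 FPKM in shBUB3 cells, against 7.80, 7.39 and 7.70 FPKM in pLKO control cells. The first and second libraries stood far above the control and the third stood among it, so the groups overlapped, and its log2 fold change was 0.62 with all libraries and 0.92 without the third. KMT2D had 14.00, 13.1 and 7.29 FPKM in shBUB3 cells, against 7.59, 6.93 and 7.57 FPKM in pLKO control cells, with the same overlap, and 0.53 and 0.80 as log2 fold changes with and without that library. Without the first or the second shBUB3 library both lost the limma call (adjusted p = 0.056 and 0.055 for ASH1L, 0.070 and 0.065 for KMT2D), as did KMT2D without the second pLKO library (adjusted p = 0.052). Among the other genes JMJD6, a hydroxylase of the JmjC class, rose by 0.56 with its shBUB3 libraries apart from the control. NSD1, the H3K9 demethylase family member JMJD1C and KDM6B were among the 9 genes called higher when the third library was left out and not when it was kept, at 0.57, 0.57 and 0.18. SETD7 had 34.0, 35.6 and 21.2 FPKM in shBUB3 cells, against 37.8, 35.2 and 34.8 FPKM in pLKO control cells. Its log2 fold change was -0.28 with all libraries and -0.05 without the third, and it was not called either way.

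**Figure D4:**
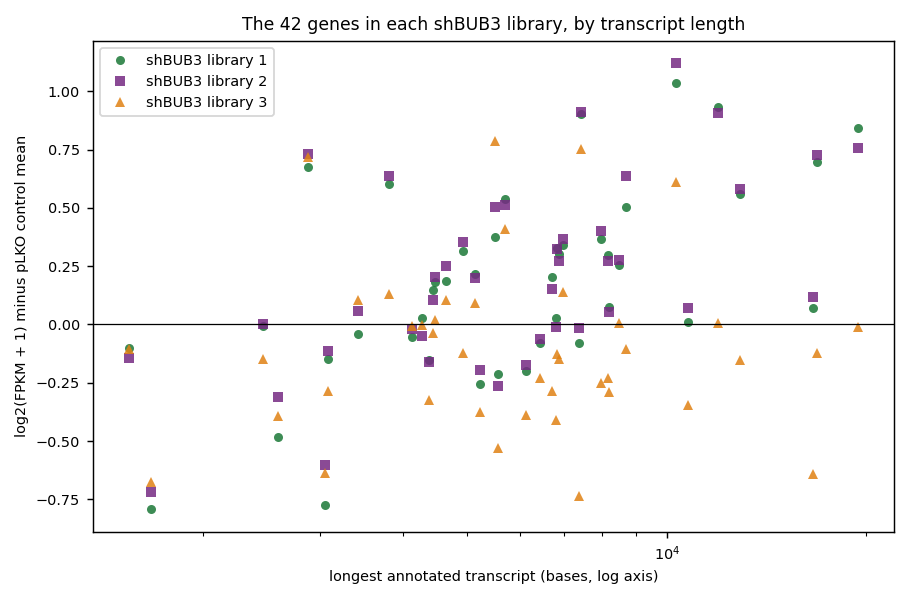
Difference of each of the 42 genes from the pLKO control mean in log2(FPKM + 1), for each shBUB3 library, against the length of the gene's longest transcript in bases (log axis). The first and second libraries lie above the third for most long transcripts, and ASH1L is 0.91 lower in the third than in the other shBUB3 libraries.

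The third shBUB3 library also enters the shared estimate of the spread. Without it the median standard error of the 42 genes in the shUSP7 and shFOXA1 comparisons was 0.04, against 0.08 with it, and the called genes among the 42 numbered 29 for shUSP7 (13 higher, 16 lower) and 31 for shFOXA1 (18 higher, 13 lower). The fold changes of these comparisons do not depend on it.

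In shFOXA1 cells KDM6B and the H3K4 writers KMT2C and KMT2B rose most, and SETD7, SMYD5 and SMYD2 fell most. Of the 42 genes 12 rose (28.6%) and 11 fell (26.2%), against 25.2% and 45.1% of all genes tested. The median was 0.08 over the 42 genes and -0.15 over all. When libraries were rescaled by median ratios the all-gene median shifted by 0.14, and 19 of the 42 then rose and 9 fell, with 48.4% of all calls in the higher direction, against 35.9% without it.

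KDM6B had 47.6, 48.5 and 45.5 FPKM in shFOXA1 cells, against 21.2, 22.0 and 22.7 FPKM in pLKO control cells. Every shFOXA1 library was far above every control library, with a log2 fold change of 1.07 ± 0.10 (adjusted p = 2.3e-06). KMT2C had 14.7, 13.5 and 14.7 FPKM in shFOXA1 cells, against 6.71, 5.99 and 6.44 FPKM in pLKO control cells, and differed by 1.05 ± 0.17 (adjusted p = 0.0002). KMT2B had 14.7, 15.4 and 15.5 FPKM in shFOXA1 cells, against 8.22, 8.31 and 8.69 FPKM in pLKO control cells. Its libraries did not overlap either, at 0.78 ± 0.07 (adjusted p = 8.5e-07), while its opposite-strand neighbour IGFLR1 fell, at -1.34. SETD1B, which trimethylates H3K4 at promoters, rose by 0.50, which made 3 of 6 H3K4 writers higher and none lower.

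SETD7 had 14.5, 15.6 and 13.7 FPKM in shFOXA1 cells, against 37.8, 35.2 and 34.8 FPKM in pLKO control cells. All 3 were under any control library, with a log2 fold change of -1.25 ± 0.15 (adjusted p = 1.3e-05). SMYD5 had 2.50, 2.72 and 2.31 FPKM in shFOXA1 cells, against 5.46, 5.55 and 6.48 FPKM in pLKO control cells, a log2 fold change of -0.96 ± 0.08 (adjusted p = 5.7e-07). SMYD2 had 0.713, 1.14 and 0.812 FPKM in shFOXA1 cells, against 2.88, 2.70 and 2.38 FPKM in pLKO control cells, and fell by 0.96 ± 0.09 (adjusted p = 1.5e-06). Neither gene had overlapping libraries, and of the 10 other SET-domain proteins 5 fell and KMT2E alone rose, while 4 fell and 3 rose under median-ratio scaling.

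The H3K9 writers split in shFOXA1 cells, with SUV39H2 at -0.77, EHMT2 at -0.27 and SETDB2 at -0.19 lower and EHMT1 at 0.31 higher. Under median-ratio scaling SETDB2 was at -0.07 and lost its limma call (adjusted p = 0.34). NSD1 fell by 0.57 in shFOXA1 cells. In the pGIPZ experiment NSD1 averaged 9.98 ± 0.458 RPKM in shFoxA1 cells and 9.60 ± 0.419 RPKM in pGIPZ control cells (SD, n = 3 each), with overlapping libraries, and was not called. Among the erasers KDM1A fell by 0.78 and KDM2B, which binds unmethylated CpG DNA and demethylates H3K36, fell by 0.87 on the log2 scale. The KDM2B neighbour RNF34, which shares exon bases, fell by 0.35. The H3K4 demethylase KDM5B rose by 0.65, and KDM4B and KDM4C rose by 0.68 and 0.62, together with KDM3A, KDM4A and PHF2.

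In siEZH2 cells 19 of the 42 genes rose (45.2%) and 8 fell (19.0%), against 20.3% and 43% of all 11908 genes tested in that experiment. The demethylases JMJD1C and KDM6B and the methyltransferase SMYD3 rose most, and SETD7, SUV39H2 and DOT1L fell most. The median was 0.13 over the 42 genes and -0.16 over all. After median-ratio rescaling, with an all-gene shift of 0.13, 23 of the 42 rose and 6 fell, with 45.8% of all calls in the higher direction, against 32.1% without it.

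JMJD1C (chr10:63167221-63521850, minus strand), of the H3K9 demethylase family of KDM3A, had 14.1, 12.4 and 10.9 FPKM in siEZH2 cells, against 5.71, 6.45 and 5.30 FPKM in siCtrl cells. Its siEZH2 libraries spread more than the control and none overlapped it, with a log2 fold change of 0.98 ± 0.10 (adjusted p = 2.2e-05). KDM6B had 41.9, 39.98 and 49.3 FPKM in siEZH2 cells, against 26.6, 21.9 and 22.3 FPKM in siCtrl cells, and differed by 0.86 ± 0.10 (adjusted p = 3.7e-05). SMYD3, which methylates MAP3K2 in other cells, had 20.9, 21.0 and 22.2 FPKM in siEZH2 cells, against 12.6, 12.6 and 14.2 FPKM in siCtrl cells. All siEZH2 libraries were above all siCtrl libraries for both genes, and SMYD3 differed by 0.66 ± 0.08 (adjusted p = 3.4e-05).

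SETD7 had 20.6, 15.9 and 14.9 FPKM in siEZH2 cells, against 43.8, 45.5 and 39.98 FPKM in siCtrl cells, a log2 fold change of -1.29 ± 0.11 (adjusted p = 5.1e-06). SUV39H2 had 3.23, 3.17 and 3.14 FPKM in siEZH2 cells, against 7.37, 7.80 and 7.53 FPKM in siCtrl cells. The siEZH2 values were within 0.1 FPKM of each other and under every siCtrl value, with a log2 fold change of -1.04 ± 0.08 (adjusted p = 2.1e-06), and the overlapping DCLRE1C was at -0.01 and not called. DOT1L had 8.05, 6.80 and 8.89 FPKM in siEZH2 cells, against 15.0, 12.7 and 13.6 FPKM in siCtrl cells, and its log2 fold change was -0.73 ± 0.10 (adjusted p = 0.00013). DOT1L was thus lower in siEZH2 cells, with PLEKHJ1 at -0.03 and not called, and higher in shUSP7 and shBUB3 cells against their own control.

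By role, 5 of the 6 H3K4 writers rose in siEZH2 cells and none fell, with KMT2B highest at 0.62 and IGFLR1 beside it at -1.13. KMT2D was the one not called. SETDB1, which silences retroelements through H3K9 methylation, rose by 0.50. Among the erasers KDM1A and KDM5B rose by 0.25 and 0.30, PHF2 by 0.51 and KDM3A by 0.45, while KDM4A and KDM4B fell by 0.30 and 0.64. SETD3 and JMJD6 each fell by 0.52. SMYD2 had 2.45, 2.28 and 1.80 FPKM in siEZH2 cells, against 2.50, 2.20 and 2.21 FPKM in siCtrl cells, and was not called.

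In the pGIPZ knockdown of FOXA1 most of the 42 genes rose by small amounts, among them the enhancer H3K4 writer KMT2C and nearly all the erasers. In shFoxA1 cells 25 of the 42 genes rose (59.5%) and 3 fell (7.14%), against 25% and 24.2% of all 12563 genes tested. The median was 0.15 over the 42 genes and 0.00 over all, and no gene of the 42 moved by 2-fold. All 4 H3K4 erasers rose, by 0.16 to 0.35, and 8 of the 9 H3K9 or H3K36 erasers rose and none fell, with KDM2B the exception at -0.04. Of the writers of H3K4, 4 of 6 rose and none fell.

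KDM2A, a H3K36 demethylase, had 22.8, 24.4 and 23.6 RPKM in shFoxA1 cells, against 17.3, 17.2 and 15.9 RPKM in pGIPZ control cells. KMT2C had 7.27, 7.41 and 7.55 RPKM in shFoxA1 cells, against 5.18, 5.09 and 4.95 RPKM in pGIPZ control cells. Libraries of both genes were apart, with log2 fold changes of 0.47 ± 0.04 and 0.47 ± 0.04 (adjusted p = 1.8e-06 and 1.8e-06). SETDB2 had 4.24, 3.75 and 3.69 RPKM in shFoxA1 cells, against 2.69, 2.61 and 2.47 RPKM in pGIPZ control cells, and rose by 0.45 ± 0.07 (adjusted p = 0.00015).

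The 3 genes that fell were SMYD2, SMYD5 and SUV39H2. SMYD2 had 1.23, 0.993 and 1.26 RPKM in shFoxA1 cells, against 1.59, 2.12 and 1.93 RPKM in pGIPZ control cells, and its log2 fold change was -0.41 ± 0.08 (adjusted p = 0.0014). SMYD5 had 4.44, 5.92 and 4.70 RPKM in shFoxA1 cells, against 6.65, 7.10 and 6.57 RPKM in pGIPZ control cells, at -0.38 ± 0.08 (adjusted p = 0.0016). SUV39H2 had 3.02, 3.05 and 2.52 RPKM in shFoxA1 cells, against 3.43, 3.21 and 3.83 RPKM in pGIPZ control cells. Libraries of all 3 genes were below the control without overlap, while the SUV39H2 call (-0.22 ± 0.08, adjusted p = 0.04) was lost without the third shFoxA1, the first pGIPZ or the third pGIPZ library, with adjusted p from limma of 0.16, 0.069 and 0.15.

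FOXA1 was thus knocked down with separate vectors and separate controls, and 16 of the 42 genes were called in both, which is 16 of the 23 called in shFOXA1 cells and 16 of the 28 called in shFoxA1 cells. The shFOXA1 calls are those of the fit that includes the third shBUB3 library, without which 31 were called. Of the 42 genes 38.1% were thus called in both, against 37.2% of the 12042 genes tested in both experiments. Of the 42, 10 rose in both (23.8%, against 11.1% of all genes), 3 fell in both (7.14%, against 16.0%) and 3 went opposite ways (7.14%, against 10.1%). Under median-ratio scaling 14 rose in both, 3 fell in both and 2 went opposite ways. The genes that fell in both were SUV39H2, SMYD2 and SMYD5. Those that rose in both included KMT2C, at 1.05 in shFOXA1 cells and 0.47 in shFoxA1 cells, and KDM6B, at 1.07 and 0.13. SETD7, SETDB2 and KDM1A fell in shFOXA1 cells and rose in shFoxA1 cells, and the fall of SETDB2 was not called under the scaling. FOXA1 itself differed by -0.96 in shFOXA1 cells and -0.67 in shFoxA1 cells.

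The 42 genes have longer transcripts than most tested genes. Their longest annotated transcripts had a median of 5921 bases, against 3160 bases over the tested genes of the pGIPZ experiment, and 26 of the 42 were among the longest 25% of those genes. In shFoxA1 cells 36% of these long genes rose and 20.6% fell, against 13.8% and 26.4% of the shortest 25%. Of the 26 genes 20 rose and none fell. In siEZH2 cells 14 of the 26 rose and 4 fell, while 24.4% of all long genes rose and 38.5% fell.

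When FOXA1 was added back, SMYD2 and KDM1A stood above the pGIPZ control with both forms of the protein. With K295A, 19 of the 42 genes were higher than in pGIPZ control cells (45.2%) and 7 were lower (16.7%), against 37.8% and 12.8% of all genes. With wild-type FOXA1, 12 were higher (28.6%) and 3 were lower (7.14%), against 33.7% and 11.8%. The medians over the 42 genes were 0.11 with K295A and 0.07 with wild-type FOXA1, and those over all genes were 0.11 and 0.10. Both comparisons share the pGIPZ control libraries. The 7 lower with K295A became 2 without the first pGIPZ library, 4 without the second and 3 without the second or the third K295A library, and the 3 lower with wild-type FOXA1 became 1 without its second library. Rescaling by median ratios shifted the all-gene median by -0.10 with K295A and gave 7 higher and 12 lower with K295A and 6 higher and 12 lower with wild-type FOXA1. It also moved the share of all calls that were higher to 49.4% and 48.5%, against 74.7% with K295A and 74.0% with wild-type FOXA1 without it, so the direction of the small differences rests on the scaling.

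SMYD2 rose most in both, with 3.45, 3.26 and 3.23 RPKM with K295A and 3.42, 3.57 and 3.15 RPKM with wild-type FOXA1, against 1.59, 2.12 and 1.93 RPKM in pGIPZ control cells. All 6 libraries were above all control libraries, by 0.59 ± 0.08 (adjusted p = 0.00013) and 0.61 ± 0.08 (adjusted p = 0.00012). KDM1A had 25.3, 26.3 and 25.3 RPKM with K295A and 24.7, 25.4 and 25.4 RPKM with wild-type FOXA1, against 19.6, 18.8 and 19.3 RPKM in pGIPZ control cells, at 0.40 ± 0.03 (adjusted p = 1.6e-06) and 0.37 ± 0.03 (adjusted p = 3.3e-06). KDM2B had 9.38, 10.0 and 10.0 RPKM with K295A, against 7.06, 6.95 and 6.18 RPKM in pGIPZ control cells, and rose by 0.49 ± 0.06 (adjusted p = 5.6e-05). SMYD3 had 11.4, 10.7 and 10.9 RPKM with wild-type FOXA1, against 8.67, 7.90 and 8.44 RPKM in pGIPZ control cells, and rose by 0.36 ± 0.08 (adjusted p = 0.0028). No library of these genes overlapped the control.

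The genes that fell below the pGIPZ control did so by little. KDM3A had 4.16, 4.37 and 4.33 RPKM with K295A, against 5.33, 5.13 and 4.67 RPKM in pGIPZ control cells (-0.19 ± 0.07, adjusted p = 0.043), and KMT2A, which acts at developmental promoters, had 3.82, 3.63 and 3.75 RPKM with K295A, against 4.36, 4.08 and 4.37 RPKM (-0.15 ± 0.05, adjusted p = 0.03). KMT2D had 7.66, 7.58 and 7.79 RPKM with K295A, against 8.49, 8.81 and 8.56 RPKM in pGIPZ control cells (-0.15 ± 0.04, adjusted p = 0.0081). The libraries of these 3 genes were below the control without overlap. Of the H3K4 writers 4 of 6 were lower with K295A and SETD1A was higher, and with wild-type FOXA1 none was called, whereas under median-ratio scaling 4 were lower with each form and none was higher. In cells with wild-type FOXA1, SETD4 had 4.35, 4.43 and 4.80 RPKM, against 5.10, 5.16 and 5.89 RPKM in pGIPZ control cells (-0.21 ± 0.06, adjusted p = 0.019), KDM6B had 33.2, 34.4 and 33.5 RPKM, against 35.7, 37.0 and 37.4 RPKM (-0.12 ± 0.03, adjusted p = 0.0042), and JMJD1C had 6.27, 6.28 and 6.55 RPKM, against 6.92, 7.06 and 6.93 RPKM (-0.11 ± 0.04, adjusted p = 0.025). These libraries too lay below the control. The limma calls on KDM3A, KMT2A, SETD4 and JMJD1C were lost when single libraries were left out, with adjusted p from 0.071 to 0.13 for KDM3A without any 1 K295A library or pGIPZ library 1 or 2, and from 0.060 to 0.087 for KMT2A without K295A library 2 or 3 or pGIPZ library 1 or 3. For SETD4 they ran from 0.055 to 0.080 without wild-type library 1 or 2 or pGIPZ library 3, and for JMJD1C from 0.070 to 0.074 without wild-type library 1 or 2 or pGIPZ library 2.

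Against shFoxA1 cells, with which they share the shRNA, cells with either form had more SMYD2, SUV39H2 and KDM2B and less KMT2C and JMJD1C. Cells with K295A had 11 of the 42 genes higher (26.2%) and 17 lower (40.5%), against 38.7% and 18.3% of all genes. Cells with wild-type FOXA1 had 10 higher (23.8%) and 18 lower (42.9%), against 36.6% and 18.9%. The medians over the 42 genes were -0.10 with K295A and -0.11 with wild-type FOXA1, and those over all genes were 0.10 and 0.08. Under median-ratio scaling 6 of the 42 were higher and 26 lower with K295A, and 7 higher and 26 lower with wild-type FOXA1. The share of all calls that were higher was then 49.3% with K295A and 49.8% with wild-type FOXA1, against 67.9% and 65.9% without it. These comparisons share the shFoxA1 libraries with each other and with the knockdown itself.

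SMYD2 was the highest of the 42 in both, with 3.45, 3.26 and 3.23 RPKM with K295A and 3.42, 3.57 and 3.15 RPKM with wild-type FOXA1, against 1.23, 0.993 and 1.26 RPKM in shFoxA1 cells. Every library with added FOXA1 held more than 2 times the SMYD2 level of any shFoxA1 library, and the log2 fold changes were 1.00 ± 0.08 (adjusted p = 9.9e-07) and 1.02 ± 0.08 (adjusted p = 8.7e-07). SUV39H2 had 4.80, 4.84 and 4.86 RPKM with K295A and 3.92, 4.68 and 3.85 RPKM with wild-type FOXA1, against 3.02, 3.05 and 2.52 RPKM in shFoxA1 cells, at 0.60 ± 0.08 (adjusted p = 5.1e-05) and 0.41 ± 0.08 (adjusted p = 0.00087). KDM2B had 9.38, 10.0 and 10.0 RPKM with K295A and 8.15, 8.52 and 8.98 RPKM with wild-type FOXA1, against 6.07, 6.54 and 6.99 RPKM in shFoxA1 cells, at 0.52 ± 0.06 (adjusted p = 1.8e-05) and 0.34 ± 0.06 (adjusted p = 0.00052). Both genes had every library with added FOXA1 above every shFoxA1 library.

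KMT2C fell most, with 4.53, 4.66 and 4.63 RPKM with K295A and 4.70, 4.83 and 4.62 RPKM with wild-type FOXA1, against 7.27, 7.41 and 7.55 RPKM in shFoxA1 cells, at -0.58 ± 0.04 (adjusted p = 2.3e-07) and -0.56 ± 0.04 (adjusted p = 3.5e-07). JMJD1C had 6.53, 6.79 and 6.58 RPKM with K295A and 6.27, 6.28 and 6.55 RPKM with wild-type FOXA1, against 9.58, 9.67 and 9.71 RPKM in shFoxA1 cells, at -0.48 ± 0.04 (adjusted p = 5.3e-07) and -0.53 ± 0.04 (adjusted p = 2.2e-07). The shFoxA1 libraries of both genes lay above all libraries with added FOXA1. KDM3A had 4.16, 4.37 and 4.33 RPKM with K295A, against 6.07, 6.54 and 6.13 RPKM in shFoxA1 cells (-0.45 ± 0.07, adjusted p = 0.0002), and KDM2A had 16.8, 17.4 and 16.5 RPKM with wild-type FOXA1, against 22.8, 24.4 and 23.6 RPKM in shFoxA1 cells (-0.46 ± 0.04, adjusted p = 1.9e-06). By role, 5 of 6 H3K4 writers were lower with K295A and 4 of 6 with wild-type FOXA1, and 6 of the 9 H3K9 or H3K36 erasers were lower with each.

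K295A and wild-type FOXA1 were compared with each other directly, and 0 of the 42 genes were called by limma, against 0.183% of all genes (23 of 12563). The lowest adjusted p among the 42 was 0.31. At an unadjusted p under 0.05 there were 5 of the 42 genes and 1310 of all genes. The log2 fold changes of the 42 genes ran from -0.10 for KMT2D to 0.18 for SUV39H2, and every 95% interval lay within -0.26 and 0.36, so a 2-fold difference was outside the interval of each gene.

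The H3K36 demethylase KDM2B had 9.38, 10.0 and 10.0 RPKM with K295A, against 8.15, 8.52 and 8.98 RPKM with wild-type FOXA1, and its difference was 0.18 with an interval of 0.05 to 0.31. KMT2D had 7.66, 7.58 and 7.79 RPKM with K295A, against 8.02, 8.49 and 8.44 RPKM with wild-type FOXA1, at -0.10 with an interval of -0.19 to -0.02. Libraries of these genes were apart, by margins smaller than the range within the wild-type group. SMYD2, the gene that differed most from shFoxA1 cells, had an interval of -0.20 to 0.16 between K295A and wild-type FOXA1.

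**Figure D5:**
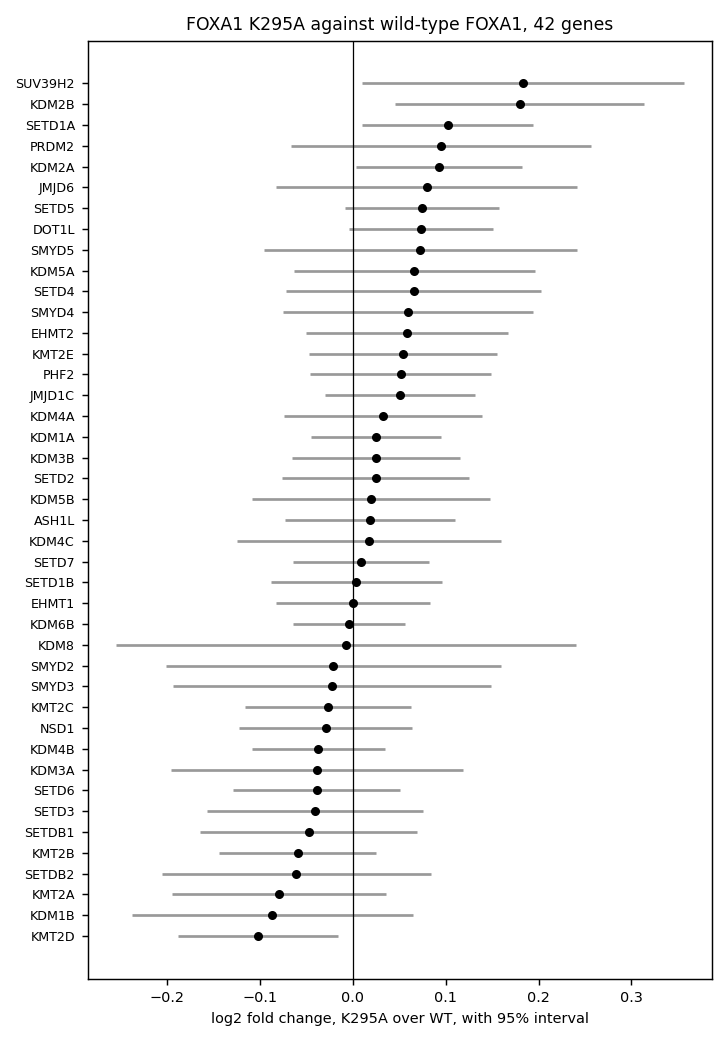
Log2 fold change of shFoxA1 K295A over shFoxA1 WT for the 42 genes (points) with 95% intervals (lines) from limma. All points lie between -0.10 and 0.18, and none was called after adjustment.

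Partner proteins of these enzymes, on lists chosen with earlier results of these data known, moved in the numbers below. For these, the luminal and the proliferation lists, the shares over all tested genes were as follows. In shUSP7 cells 29.1% rose and 33% fell, in shBUB3 cells 33.3% and 32%, in shFOXA1 cells 25.2% and 45.1%, and in siEZH2 cells 20.3% and 43%. Against pGIPZ control cells they were 37.8% and 12.8% with K295A, 33.7% and 11.8% with wild-type FOXA1, and 25% and 24.2% in shFoxA1 cells. Of 12 subunits and partners of the COMPASS complexes, which carry the H3K4 writers, 2 rose and 4 fell in shUSP7 cells, 0 and 8 in shBUB3 cells, 2 and 8 in shFOXA1 cells and 3 and 8 in siEZH2 cells. The chromatin tether PSIP1 fell by 1.75 in shUSP7 cells, PAGR1 by 1.26 in shBUB3 cells, WDR82 by 1.13 in shFOXA1 cells and ASH2L by 0.82 in siEZH2 cells. In the pGIPZ experiment 10 rose with K295A, 8 with wild-type FOXA1 and 5 in shFoxA1 cells, and none fell, against pGIPZ control cells. The median of the list ran from -0.35 in siEZH2 cells to 0.27 with K295A. Under median-ratio scaling 8 rose and 1 fell with K295A and 6 rose and 1 fell with wild-type FOXA1.

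Among 10 partners of KDM1A in the LSD1 complex, 1 rose and 3 fell in shUSP7 cells, 0 and 4 in shBUB3 cells, 2 and 3 in shFOXA1 cells, and 3 and 3 in siEZH2 cells. HDAC2 fell by 1.15 in shBUB3 cells, and the corepressor RCOR2 rose by 0.87 in siEZH2 cells. Against pGIPZ control cells 8 rose with K295A, 7 with wild-type FOXA1 and 4 in shFoxA1 cells, where 2 fell. The balance of this list turned under median-ratio scaling in shFOXA1 cells, with 5 higher and 1 lower, and it was 3 higher and 1 lower with K295A. Among 10 H3K9 readers and partners, 1 rose and 5 fell in shUSP7 cells, 1 and 6 in shBUB3 cells, 2 and 5 in shFOXA1 cells, and 0 and 4 in siEZH2 cells. WIZ, a partner of EHMT1 and EHMT2, rose by 0.54 in shUSP7 cells, 0.33 in shBUB3 cells, 0.99 in shFOXA1 cells and 1.01 in shFoxA1 cells and fell by 0.83 in siEZH2 cells. CBX5, the heterochromatin protein that binds methylated H3K9, fell by 1.25 in shUSP7 cells, 1.15 in shBUB3 cells, 1.81 in shFOXA1 cells and 1.06 in siEZH2 cells. Of the readers 7 rose with K295A, 6 with wild-type FOXA1 and 5 in shFoxA1 cells against pGIPZ control cells, and none fell.

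Of 6 DOT1L partners in elongation complexes, 0 rose and 1 fell in shUSP7 cells, 1 and 2 in shBUB3 cells, 3 and 2 in shFOXA1 cells and 1 and 0 in siEZH2 cells (3 and 0 under median-ratio scaling). Against pGIPZ control cells 3 rose and 0 fell with K295A, 3 and 1 with wild-type FOXA1 and 3 and 1 in shFoxA1 cells, and under the scaling 2 rose and 2 fell with either form. Of 8 genes that supply the methyl donor or oxoglutarate, 3 rose and 2 fell in shUSP7 cells, 1 and 6 in shBUB3 cells, 3 and 3 in shFOXA1 cells, and 1 and 4 in siEZH2 cells. Against pGIPZ control cells 6 rose and 0 fell with K295A, 7 and 0 with wild-type FOXA1 and 5 and 2 in shFoxA1 cells, while under the scaling it was 4 and 1 with K295A and 3 and 1 with wild-type FOXA1. IDH1, which makes oxoglutarate, fell by 1.90 in siEZH2 cells and rose by 1.29 in shFoxA1 cells. In shUSP7 cells MAT2B, a subunit of methionine adenosyltransferase, fell by 1.63.

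Proliferation genes moved with the groups over a wider range than the 42 genes. The 10 on the list summed to 73.9 to 77.3 FPKM in shUSP7 cells, 31.5 to 38.2 in shBUB3 cells and 45.5 to 49.2 in shFOXA1 cells, against 281 to 291 FPKM in pLKO control cells, and to 134 to 172 FPKM in siEZH2 cells, against 318 to 345 FPKM in siCtrl cells. All 10 fell in each of these knockdowns, apart from 1 in shUSP7 cells that was not called under median-ratio scaling. In the pGIPZ experiment the sums were 351 to 353 RPKM with K295A, 330.4 to 339 with wild-type FOXA1 and 225 to 233 in shFoxA1 cells, against 255 to 262 RPKM in pGIPZ control cells. Within the pGIPZ experiment the group means of SUV39H2 followed this order. These means were 4.83 RPKM with K295A, 4.15 with wild-type FOXA1 and 2.86 in shFoxA1 cells, against 3.49 RPKM in pGIPZ control cells. SUV39H2 was not called between K295A and wild-type FOXA1, and its call in shFoxA1 cells was lost without some single libraries. In the pLKO experiment the orders differed. There SUV39H2 averaged 2.02 FPKM in shUSP7, 3.29 in shFOXA1 and 5.44 in shBUB3 cells, where the sums were lowest, against 6.30 FPKM in control cells. In siEZH2 cells SUV39H2 averaged 3.18 FPKM, against 7.57 FPKM in siCtrl cells. SMYD2 averaged 3.31 RPKM with K295A, 3.38 with wild-type FOXA1 and 1.16 in shFoxA1 cells, against 1.88 RPKM in pGIPZ control cells. Its libraries with K295A and with wild-type FOXA1 overlapped, so the values give no order of the forms. The part of proliferation in these values was not tested.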

How the data were processed

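RNA-seq values of LNCaP cells were read from 2 whole-series tables. The FPKM table (pLKO and siRNA libraries) and the RPKM table (pGIPZ libraries) were deposited by the authors, in units that scale a gene's reads by its length and the library total. The submitters' processing notes name STAR and the build hg38, and libraries were made with the NEBNext Ultra RNA kit, per the labels' protocols. Which counter, annotation and strand setting were used is not given in the sources used here. Each table had 26475 rows, and 32 of them held no values. Groups came from the sample titles. No read counts were used, so the p-values rest on the spread between libraries, and no pair of columns was identical.

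The 42 genes and the partner lists were chosen with earlier results of these data known. Genes with at least 1 FPKM or RPKM in at least 3 libraries of an experiment were tested on log2(value + 1) with limma 3.58.1 (trend) in R 4.3.3, 1 fit per experiment over all its groups, with Benjamini-Hochberg adjustment over all tested genes and a threshold of 0.05. The fit was tested on simulated data. In each comparison the 3 highest and 3 lowest called genes without overlap between libraries were named with all values, and other called genes of at least 0.5 in size by their log2 fold change. Further genes named within a role were chosen after their values were seen. Alternatives were a pseudocount of 0.1, no filter, median-ratio scaling, a fit of only 2 groups, a replicate block and leaving out each library, and, chosen after seeing the data, leaving out the third shBUB3 library in the shUSP7 and shFOXA1 comparisons. Positions, exon overlaps and transcript lengths came from GENCODE 29 on GRCh38, and promoter windows from RefSeq on GRCh38.p14.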

Additional observations from a re-analysis of the deposited data

Results flagged for a closer look

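In 4 of the 42 genes all libraries of one FOXA1 knockdown lay below their control and all libraries of the other lay above theirs (9.52%, against 14.7% of the 12042 genes tested in both experiments). Libraries were apart in both knockdowns in 25 of the 42 genes (59.5%, against 47.5%). These knockdowns used separate vectors and separate controls and sit in separately normalized tables, and the difference between them was not tested. SETDB2 had 2.95, 2.85 and 2.74 FPKM in shFOXA1 cells, against 3.47, 3.42 and 3.31 FPKM in pLKO control cells, a log2 fold change of -0.19. Under median-ratio scaling this was -0.07 and not called by limma (adjusted p = 0.34). SETDB2 differed by 0.45 in shFoxA1 cells against pGIPZ control cells. SETD7 differed by -1.25 in shFOXA1 cells and by 0.14 in shFoxA1 cells, where it had 21.4, 22.3 and 22.0 RPKM, against 19.1, 19.9 and 20.3 RPKM in pGIPZ control cells. KDM1A had 14.9, 14.4 and 14.2 FPKM in shFOXA1 cells, against 26.3, 26.9 and 23.9 FPKM in pLKO control cells, at -0.78. In the pGIPZ experiment KDM1A had 22.4, 21.6 and 21.2 RPKM in shFoxA1 cells, against 19.6, 18.8 and 19.3 RPKM in pGIPZ control cells, at 0.17. KDM3B, a H3K9 demethylase, had 12.3, 11.8 and 12.4 FPKM in shFOXA1 cells, against 14.3, 13.8 and 13.4 FPKM in pLKO control cells, at -0.17, which was not called by limma (adjusted p = 0.13). The shared spread of that fit includes the third shBUB3 library. In the pGIPZ experiment KDM3B had 12.9, 12.7 and 12.5 RPKM in shFoxA1 cells, against 10.1, 11.0 and 10.1 RPKM in pGIPZ control cells, at 0.26, which was called (adjusted p = 0.00022).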

How the results depend on the processing

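The number of all genes called between K295A and wild-type FOXA1 was 23. It was 15 with no filter, 6 in a fit of the 2 groups alone, 14 with the replicate block, and 9 to 18 when 1 library was left out, while none of the 42 genes was called under any of these settings. Every other total of called genes, higher and lower together, over the 42 or over all, stayed within 1.5 times its value under each setting tried. Counts of the 42 in 1 direction moved more. Median-ratio scaling moved the 19 higher and 7 lower with K295A against pGIPZ control to 7 and 12, the 12 and 3 with wild-type FOXA1 to 6 and 12, the 11 and 17 with K295A against shFoxA1 to 6 and 26, and the 12 higher in shFOXA1 cells to 19. A fit of 2 groups gave 13 higher in shUSP7 cells, against 8 in the fit of all groups, and 8 higher in shBUB3 cells, against 14. The 14 higher in shBUB3 cells were 8 without the first or the second shBUB3 library and 9 without the second pLKO library. The 7 lower with K295A against pGIPZ control were 2 without the first pGIPZ library, 4 without the second, and 3 without the second or the third K295A library. The 3 lower with wild-type FOXA1 were 1 without its second library. Leaving out 1 library gave 17 to 29 called genes of the 42 for shUSP7, 15 to 30 for shBUB3, 20 to 31 for shFOXA1, 23 to 28 for siEZH2 and 24 to 26 for shFoxA1, and the highest counts for shUSP7, shBUB3 and shFOXA1 came without the third shBUB3 library, which moved the genes of the 42 called higher in shBUB3 cells to 23, against 14 with it. Of 75 named gene and comparison pairs 68 kept their direction and call under every setting, 7 lost the call under some and 0 reversed. Replicate numbers did not pair the libraries, since same-numbered libraries did not deviate together, and the replicate block gave 21, 19, 23, 27 and 27 called genes of the 42 for shUSP7, shBUB3, shFOXA1, siEZH2 and shFoxA1. Under the block SUV39H2 in shFoxA1 cells (adjusted p = 0.060) and KDM3A with K295A (adjusted p = 0.053) lost their limma calls. Without counts, no counting interval can be given for low genes such as SMYD2 and KDM8.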
